A study of Mus musculus with 2 samples.

Results

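The genes Cxcl9, Cxcl10, Cxcr3, Cxcl16 and Cxcr6 make up a pair of chemokine axes by which lymphocytes reach and stay in tissues, and they are described here in immune cells of irradiated and untreated mouse tumors. They were taken by gene symbol from both count matrices, which gave 5 of 32285 genes, and all 5 had UMIs in both libraries. CD45+ cells (CD45, encoded by Ptprc, marks leukocytes) were sorted from tumors of MC38, a mouse colon carcinoma line, grown in mice of the genotype labelled WT. The Control library came from untreated tumors and the IR library from tumors collected 4 days after ionizing radiation, 20 Gy given at once. Elsewhere in the study WT denotes Ythdf2 fl/fl animals without Cre, and the labels do not say whether that held for these mice. Each library was 1 pool of several tumors, so there was 1 library per group, no test was possible, and all intervals below are 95% intervals that cover counting error only.

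Both libraries also carry the cell type label CD45+CD11b+Ly6Chi, which the data went against, since T cells with Cd3e and natural killer (NK) cells with Ncr1 were present in each. Barcodes with at least 1000 UMIs (unique molecular identifiers, each of which stands for 1 captured RNA molecule) were assigned to lineages by summed marker genes, none of them among the 5 genes. This left 3532 gated cells in Control and 2657 in IR, with 28561391 and 25206231 UMIs, and the 2 libraries shared 6 barcodes. Macrophages (C1q genes) numbered 1763 in Control and 374 in IR, and monocytes (Ly6c2, Plac8, Ms4a4c and others) 711 and 1160. T cells numbered 453 and 301, NK cells 288 and 374, and mature dendritic cells (DCs, with Ccr7 and Fscn1) 120 and 144. A fibroblast gate of 58 and 47 cells held only 6 and 4 UMIs of Ptprc, so these cells lacked the mRNA of the protein that the sort selected. Levels are given as CPM, the UMIs of a gene in a gate scaled to a fixed total (counts per 1e6 UMIs), and ratios are IR over Control. Because the kit counts 1 tag at the 3' end of each molecule, levels of different genes can be set side by side without scaling for length. A gene is called higher or lower in IR where its CPM differed at least 1.5-fold and the exact Poisson intervals did not overlap, among genes with at least 20 UMIs in both libraries together.

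CXCL9 and CXCL10 are secreted ligands of CXCR3, a receptor carried by activated CD8 T cells, type 1 helper T cells and NK cells. Both are interferon-inducible, Cxcl9 chiefly by interferon-gamma and Cxcl10 also by type I interferons and by NF-kB. CXCL16 is made as a transmembrane protein on macrophages and DCs that can be shed by the proteases ADAM10 and ADAM17, and its receptor CXCR6 marks tissue-resident and effector T cells and some NK and NKT cells.

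Cxcl9 (ENSMUSG00000029417) and Cxcl10 (ENSMUSG00000034855) are neighbours on mouse chromosome 5 and both are read from the minus strand. In the annotation of the build that the files use (mm10, GRCm38), Cxcl9 spans bases 92321347 to 92328079 and Cxcl10 bases 92346638 to 92348889, with 18558 bases between them. Cxcl16 (ENSMUSG00000018920) lies on chromosome 11 (70453983 to 70459984, minus strand), Cxcr6 (ENSMUSG00000048521) on chromosome 9 (123806475 to 123811760, plus strand) and Cxcr3 (ENSMUSG00000050232) on chromosome X (101731535 to 101734269, minus strand). All 5 are protein-coding. The bases just before the start sites of Cxcl9 and Cxcl10 are shown because the 2 genes, though neighbours, differed most in the comparison below. The sequences are the 250 bases upstream of each start in RefSeq on build GRCm38.p6, at chr5:92328080-92328329 for Cxcl9 and chr5:92348890-92349139 for Cxcl10, written 5' to 3' on the minus strand, with motif matches in capitals.
Cxcl9: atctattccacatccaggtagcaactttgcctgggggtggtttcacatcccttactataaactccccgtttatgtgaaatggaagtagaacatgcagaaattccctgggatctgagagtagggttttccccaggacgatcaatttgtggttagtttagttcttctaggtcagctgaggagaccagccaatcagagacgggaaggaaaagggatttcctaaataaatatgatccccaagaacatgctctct
Cxcl10: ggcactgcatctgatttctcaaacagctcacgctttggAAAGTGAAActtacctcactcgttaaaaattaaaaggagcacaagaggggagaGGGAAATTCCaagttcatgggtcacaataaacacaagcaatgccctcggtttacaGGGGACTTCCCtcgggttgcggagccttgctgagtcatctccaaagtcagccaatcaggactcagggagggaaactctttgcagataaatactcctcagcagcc
Both strands were searched for TTTCNNTTT (the core of an interferon-stimulated response element), TTCNNNGAA (a gamma-activated site) and the kB consensus of NF-kB. The Cxcl10 window held TTTCNNTTT on its complementary strand from base -212 to -204, a kB match from -159 to -150, and another pair of overlapping kB matches from -104 to -95 and from -103 to -94. The Cxcl9 window held none of these letters. Among 32851 RefSeq promoter windows of the same length, 9.37% held TTTCNNTTT, 7.02% held TTCNNNGAA and 7.25% held the kB consensus. A match describes the letters only.

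Cxcl9 was highest in macrophages and second in monocytes of Control tumors, and in IR it was lower in both. In macrophages Cxcl9 stood at 1002 CPM in Control (16070 UMIs, interval 987 to 1018) and at 336 CPM in IR (1395 UMIs, interval 319 to 355), a log2 ratio of -1.57 (interval -1.65 to -1.50). In monocytes it stood at 635 CPM (2922 UMIs) and 222 CPM (2312 UMIs), a log2 ratio of -1.52 (interval -1.60 to -1.44). As linear ratios of IR to Control these are 0.336 and 0.349, so the 2 gates differed little from each other in this respect. In the IR library macrophages no longer stood apart, since their interval overlapped that of mature DCs, at 291 CPM, which in turn overlapped that of the fibroblast gate, at 262 CPM.

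Cxcl9 did not go the same way in every gate. In mature DCs, which carry antigen to lymph nodes, it was higher in IR, at 169 CPM in Control (151 UMIs) and 291 CPM in IR (438 UMIs), with a log2 ratio of 0.79 (interval 0.52 to 1.06) that ranged from 0.14 to 1.28 over 15 alternatives. In the fibroblast gate it stood at 196 and 262 CPM, 1.34-fold higher and not called. There 1 Control cell held 118 of the 216 UMIs, and without the highest cell of each library the values were 90.9 and 191 CPM. The log2 ratio of the fibroblast gate ranged from -0.09 to 1.83 over 15 alternatives. The cDC1 gate (Xcr1, Clec9a) went from 226 CPM in Control to 1355 CPM, but it held 28 and 8 cells, and 1 IR cell carried 91 of the 124 UMIs. In the pDC gate all 79 IR UMIs came from 1 cell. Without the cell of most Cxcl9 UMIs in each library, macrophages stood at 991 and 317 CPM and mature DCs at 116 and 241 CPM.

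**Figure D1:**
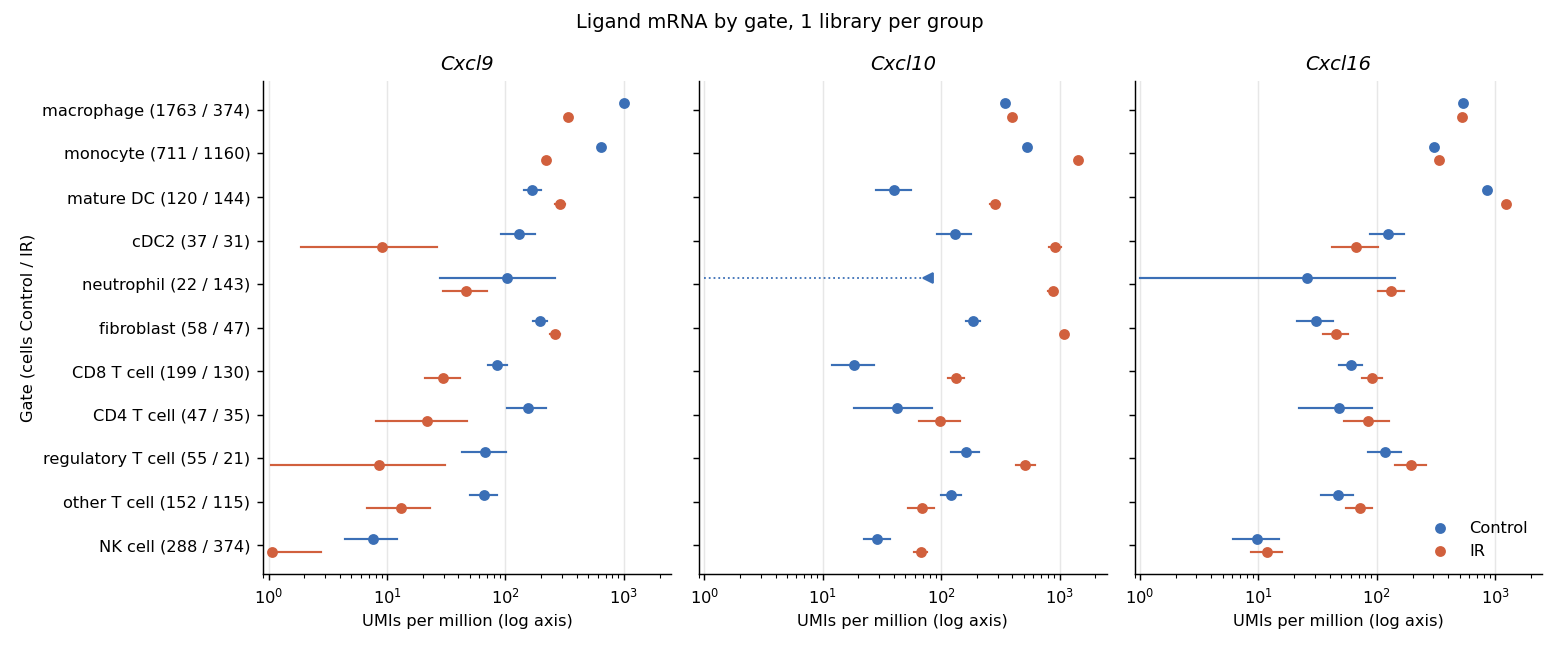
Cxcl9, Cxcl10 and Cxcl16 mRNA in 11 gates, as CPM on a log axis. Points are the sums over all cells of a gate in the Control (blue) and IR (orange) library, bars are exact 95% Poisson intervals, and the arrow marks the limit that a count of 0 allows (3 UMIs). Cxcl9 lies to the left in IR in macrophages, monocytes and lymphocytes, Cxcl10 lies to the right in most gates, and Cxcl16 in macrophages and monocytes hardly moves.

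For Cxcl10 the order of the 2 gates was the reverse, and the direction in monocytes was too. In Control it was highest in monocytes, at 526 CPM (2420 UMIs, interval 505 to 547), and in IR the monocyte level was 1439 CPM (14994 UMIs, interval 1416 to 1462), a log2 ratio of 1.45 (interval 1.39 to 1.51). Macrophages stood at 348 CPM (5574 UMIs) and 396 CPM (1641 UMIs), a log2 ratio of 0.19 (interval 0.11 to 0.27) that was not called. The direction in macrophages held in all alternatives but its size depended on where monocytes and macrophages were divided. When the monocyte list was replaced by genes less tied to interferon (Ccr2, Chil3, Hp, Vcan and F13a1), the macrophage gate held 1815 and 512 cells and Cxcl10 stood at 350 and 615 CPM, a log2 ratio of 0.81. With the same other list the monocyte gate stood at 573 and 1468 CPM.

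Outside these gates Cxcl10 was also mostly higher in IR. Mature DCs had 40.2 CPM in Control (36 UMIs) and 286 CPM in IR (431 UMIs). Of these 431 UMIs, 204 came from 1 cell, and without the highest cell of each library the values were 33.8 and 152 CPM. The cDC2 gate (Cd209a, Clec10a) had 130 CPM (39 UMIs in 37 cells) and 915 CPM (301 UMIs in 31 cells). In IR 1 cDC2 cell held 123 of the 301 UMIs and the top 5 cells held 98.3%. Without the highest cell of each library the cDC2 values were 92.1 and 555 CPM. Neutrophils, which were few in Control, had 0 Cxcl10 UMIs in 22 cells there, which allows up to 77.1 CPM at 3 UMIs. In IR they had 873 CPM (428 UMIs in 143 cells), and the exact conditional interval of the log2 ratio began at 3.20. The fibroblast gate had 187 CPM (207 UMIs) and 1094 CPM (1673 UMIs), a log2 ratio of 2.55 (interval 2.34 to 2.76) that ranged from 1.37 to 3.83 over 15 alternatives. There 1 Control cell held 100 of the 207 UMIs and 1 IR cell 309 of the 1673. Without the highest cell of each library the values were 99.9 and 913 CPM, a log2 ratio of 3.19. Over the 15 separate gates, Cxcl10 had enough UMIs in 12 and was called higher in 8, lower in 1 and neither in 3. Cxcl9 had enough in 13 and was called higher in 3, lower in 8 and neither in 2. The share of all genes called by the same rule was computed only for the gates where it is given below. Calls in the other gates have no such background, and some of them rest on few cells.

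For some gates these calls are set here against the share of all genes called by the same rule. In macrophages 10.4% of 11263 genes with at least 20 UMIs were called in either direction, and 1 of the 4 axis genes tested was among them (Cxcl9). In monocytes 6.75% of 10674 genes were called, and 2 of 5 axis genes were (Cxcl9 lower and Cxcl10 higher). The background was 6.64% in mature DCs, where 2 of 3 were called (Cxcl9 and Cxcl10, both higher), and 5.99% in the fibroblast gate, where 1 of 3 was (Cxcl10). Over all gated cells together 14.1% of genes were called, and so were 2 of 5 axis genes. Cxcl9 stood at 691 CPM in Control and 192 CPM in IR there, and Cxcl10 at 300.4 and 799 CPM.

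The 2 CXCR3 ligands were also set side by side in the same cells, which needs no scaling of libraries. Their balance lay further towards Cxcl10 in IR in macrophages, monocytes, mature DCs and the fibroblast gate. In macrophages and mature DCs the 2 levels were closer to each other in IR than in Control. Of all Cxcl9 and Cxcl10 UMIs in macrophages, Cxcl10 made up 25.8% in Control (exact binomial interval 25.2 to 26.3%) and 54.1% in IR (52.3 to 55.8%). In monocytes it made up 45.3% (44.0 to 46.6%) and 86.6% (86.1 to 87.1%). In mature DCs the share was 19.3% and 49.6%, and in the fibroblast gate 48.9% and 80.7%. Expressed as the log2 ratio of Cxcl10 minus that of Cxcl9, the difference was 1.76 in macrophages (interval 1.65 to 1.87), 2.97 in monocytes (2.87 to 3.07), 2.05 in mature DCs (1.47 to 2.65) and 2.13 in the fibroblast gate (1.80 to 2.45). Over 15 alternatives the difference ranged from 1.12 to 2.71 in mature DCs and from 1.454 to 3.003 in the fibroblast gate. Both ranges kept the sign but went beyond the counting intervals. In IR mature DCs 1 cell held 204 of the 431 Cxcl10 UMIs. In the Control fibroblast gate the highest cell held 118 of the 216 Cxcl9 UMIs, and for Cxcl10 100 of the 207. The interval in macrophages lay below that in monocytes. Whether the gates differ beyond the spread between tumors was not tested, as there was 1 library per group.

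**Figure D2:**
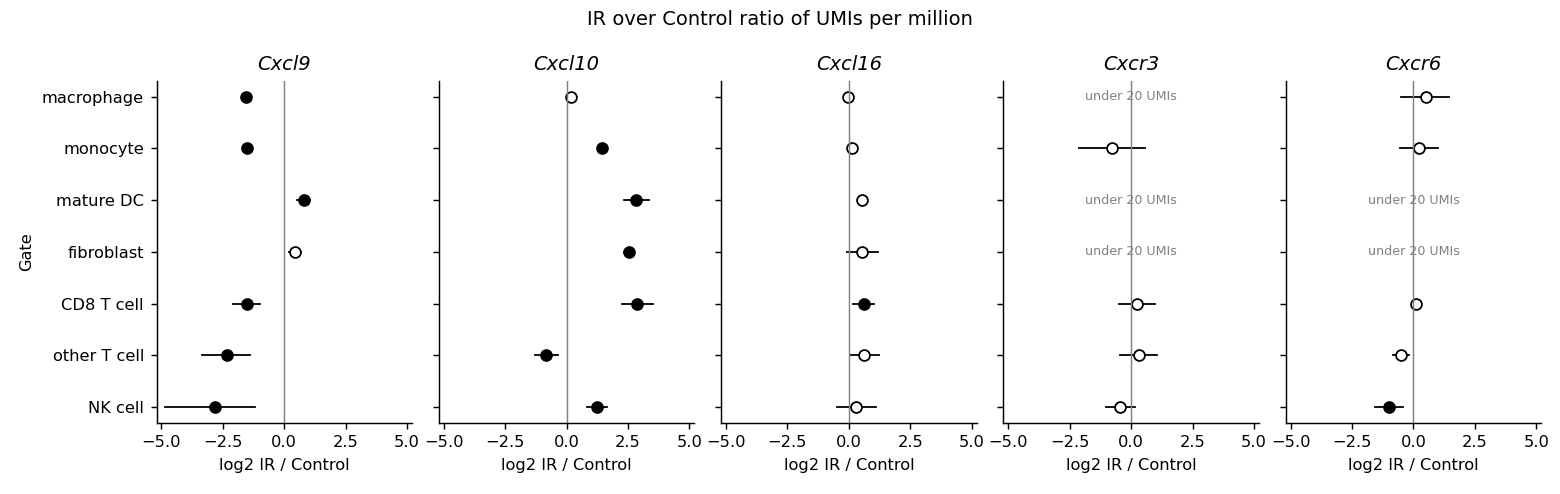
Log2 ratio of CPM, IR over Control, of the 5 genes in 7 gates with exact conditional 95% intervals. Filled points were called (at least 1.5-fold with no overlap of Poisson intervals) and open points were not. Cxcl9 and Cxcl10 lie on opposite sides of 0 in monocytes, at -1.52 and 1.45, while Cxcl16 and both receptors lie near 0 in most gates.

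In macrophages and monocytes the share of cells in which a ligand was seen went the same way as its level. To remove differences in depth, each cell was thinned to 1000 UMIs. The share of macrophages with a Cxcl9 UMI was then 28.2% in Control and 13.9% in IR (46.2% and 29.1% without thinning), and that of monocytes 19.8% and 10.3% (32.4% and 22.5%). For Cxcl10 the share of monocytes was 16.3% in Control and 34.0% in IR (28.8% and 53.7%), and that of macrophages 10.9% and 13.9% (25.5% and 37.7%). In mature DCs, where the Cxcl9 level was higher in IR, the share with a UMI was 9.17% and 8.33%. NK cells, which are not known as a source of Cxcl9, gave 0.694% (median depth 6758 UMIs) and 0 of 374 (median depth 6630 UMIs, which allows up to 0.802%), against median depths of 8426 and 9220.5 UMIs in macrophages and 5623 and 7782 in monocytes.

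Sorting cells by both ligands showed which classes changed. In thinned macrophages, 22.5% had Cxcl9 alone, 5.79% had both and 5.16% had Cxcl10 alone in Control, against 9.63%, 4.28% and 9.63% in IR. In thinned monocytes the 3 classes were 13.4%, 6.47% and 9.85% in Control and 5.34%, 4.91% and 29.1% in IR. The class with Cxcl10 alone was thus the largest of the 3 in IR monocytes and the smallest of the 3 in Control macrophages. Cells with both were more frequent than the product of the 2 shares in each case, at 5.79% against 3.09% in Control macrophages, 4.28% against 1.93% in IR macrophages, 6.47% against 3.24% in Control monocytes and 4.91% against 3.48% in IR monocytes. The 2 UMIs of such a cell come from the same droplet, so this excess is a description only.

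**Figure D3:**
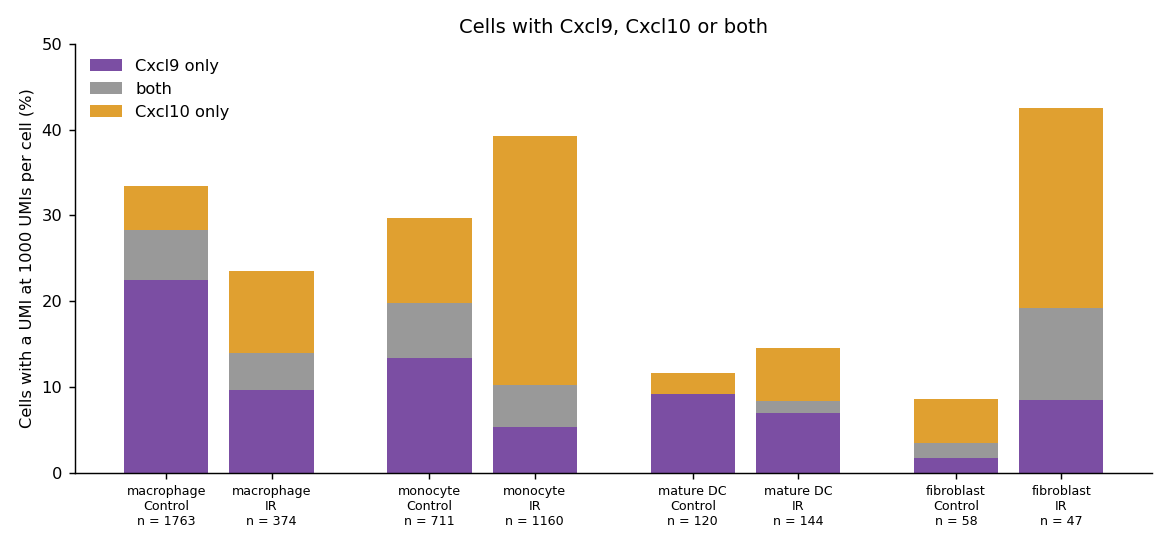
Share of cells, each thinned to 1000 UMIs, with a UMI of Cxcl9 only (purple), of both ligands (grey) or of Cxcl10 only (yellow), by gate and library, with the number of cells under each bar. In IR monocytes the segment with Cxcl10 alone reaches 29.1% of cells, against 9.85% in Control.

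Both ligands were concentrated in few cells. In IR monocytes the 10% of cells with the most Cxcl10 UMIs held 69.1% of them, and in IR macrophages this 10% held 83.2%. For Cxcl9 the same 10% of cells held 83.4% in IR macrophages and 86.9% in IR monocytes. Cxcl16 was spread more evenly, with 31.7% and 44.0% in the top 10% of cells of the same gates.

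Cxcl16, the CXCR6 ligand, was one of the steadier genes of the set. In macrophages it stood at 536 CPM in Control (8586 UMIs) and 525 CPM in IR (2176 UMIs), a log2 ratio of -0.03 (interval -0.10 to 0.04). In monocytes it stood at 303 CPM (1393 UMIs) and 334 CPM (3484 UMIs), a log2 ratio of 0.14 (interval 0.05 to 0.23). Mature DCs had the highest level in both libraries, 855 CPM (765 UMIs) and 1223 CPM (1842 UMIs), a log2 ratio of 0.52 (interval 0.39 to 0.64), which is 1.43-fold and below the threshold for a call. At 1000 UMIs a cell, 53.3% of mature DCs in Control and 68.1% in IR had a Cxcl16 UMI, against 37.0% and 36.9% of macrophages and 22.8% and 23.4% of monocytes. Over the 15 gates Cxcl16 had enough UMIs in 13 and was called higher in 2, lower in 1 and neither in 10. The 2 higher calls were CD8 T cells (60.5 and 91.4 CPM, 1.51-fold and so just past the threshold) and the pDC gate (0 and 20 UMIs in 8 and 9 cells). The lower call was the cDC1 gate (109 and 11 UMIs in 28 and 8 cells). For the pDC and cDC1 gates the share of all genes called was not computed.

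Because macrophages made up 56.1% of gated UMIs in Control and 16.4% in IR, while monocytes made up 16.1% and 41.3%, the cells that held each ligand changed with the makeup of the library as well as with the level per gate. Macrophages held 81.5% of all Cxcl9 UMIs of gated cells in Control and 28.9% in IR, and monocytes 14.8% and 47.8%. For Cxcl10 the macrophage share was 65.0% and 8.14%, and the monocyte share 28.2% and 74.4%. For Cxcl16 it was 77.1% and 27.3% in macrophages, 12.5% and 43.6% in monocytes, and 6.87% and 23.1% in mature DCs. These shares depended on where monocytes and macrophages were divided. With the other monocyte list, macrophages held 49.96% and monocytes 18.6% of Cxcl9 in IR, which turns the order of the 2 gates. For Cxcl10 in IR the shares were then 23.95% and 52.0%, and for Cxcl16 45.0% and 19.2%. When the IR levels of each gate were weighted with the Control makeup, the log2 ratio over all gated cells was -1.39 for Cxcl9 (in place of -1.85), 0.84 for Cxcl10 (in place of 1.41) and 0.04 for Cxcl16 (in place of -0.30). With Control levels and the IR makeup it was -0.57, 0.02 and -0.49. In a pool of cells, more cells of a type and more RNA per cell cannot be told apart for the pooled sum, which is why the values per gate are given first.

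**Figure D4:**
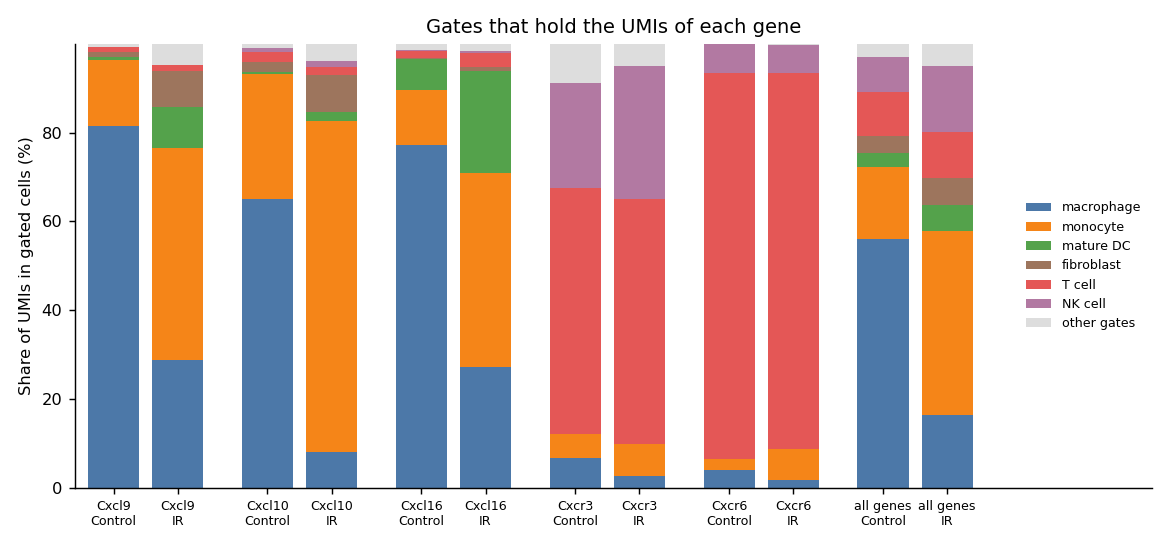
Share of the gated UMIs of each gene (in percent) that came from each gate, for the Control and the IR library, with the shares of all genes in the last 2 bars. Macrophages (blue) hold 81.5% of Cxcl9 in Control and 28.9% in IR, monocytes (orange) hold 74.4% of Cxcl10 in IR (with the other monocyte list these IR shares are 49.96% for Cxcl9 in macrophages and 52.0% for Cxcl10 in monocytes), and T cells (red) hold most of Cxcr6 in both libraries.

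The axis partners described here are Cxcl11, Adam10, Adam17, Dpp4 and Ccl5. Cxcl11, the third CXCR3 ligand, had no row in the matrices under that symbol. Adam10 and Adam17, which shed CXCL16, were not called in macrophages (log2 ratios -0.07 and -0.39) or in monocytes (Adam10 at 83.5 and 68.6 CPM, Adam17 at 89.3 and 71.1 CPM). Adam10 was lower in NK cells, at 54.2 and 27.9 CPM. Dpp4, which encodes a peptidase that trims CXCR3 ligands, was not called in T cells (19.6 and 16.4 CPM) or mature DCs (53.6 and 59.1 CPM). Ccl5, a chemokine that draws effector T cells, was higher in macrophages, at 213 and 421 CPM, and in T cells, at 1339 and 2010 CPM, but not in monocytes, at 297 and 249 CPM.

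The lists of genes tied to signals that induce the 2 CXCR3 ligands gave different numbers of calls. These lists differ in content, so the numbers do not compare the activity of pathways, which was not tested. Of 10 interferon-gamma genes with enough UMIs, 1 was higher and 1 lower in macrophages (median log2 ratio 0.18, against -0.06 over all genes) and 0 were called in monocytes (0.06, against -0.05). The share of all genes called in either direction was 10.4% in macrophages and 6.75% in monocytes. In macrophages those with the largest ratios included Socs1 (1.01, a feedback inhibitor, higher), Ciita (-0.89, the activator of MHC class II genes, lower) and Irf1 (0.49, not called). In monocytes they included Ciita (-0.58), Socs1 (0.53) and Irf1 (0.37), none of them called. Ifng itself, named here after its values were seen, was lower in T cells, at 308 and 155 CPM, and lower in CD8 T cells, at 497 and 193 CPM, whereas NK cells had 112 and 118 CPM.

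More of the interferon alpha/beta list was called. Of 11 genes with enough UMIs in macrophages, 7 were higher and 0 lower, with a median log2 ratio of 2.26. In monocytes 8 of 12 were higher and 0 lower, with a median of 1.90, and in mature DCs 9 of 11 and in T cells 8 of 11 were higher. The share of all genes called in either direction was 10.4% in macrophages, 6.75% in monocytes, 6.64% in mature DCs and 5.35% in T cells. The 4 largest ratios in macrophages were those of Ifit3 (3.56), Irf7 (3.0), Isg15 (2.67) and Ifit1 (2.41). In monocytes they were Ifit3 (3.31), Ifit1 (2.73), Rsad2 (2.52) and Isg15 (2.39), the last at 196 CPM in Control and 1033 CPM in IR. Of the 8 genes for NF-kB and inflammatory cues, 2 were higher in macrophages (median 0.30) and 5 in monocytes (median 0.67). Tnf (1.54 in macrophages and 1.52 in monocytes), Il1b (0.78 and 0.88), Nfkbia (0.52 and 0.89) and Tlr4 (0.42 and 0.71) had the largest ratios, of which Nfkbia and Tlr4 were not called in macrophages.

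Among other chemokines that act on lymphocytes, the directions split as well. Ccl8 was lower like Cxcl9, at 314 and 50.9 CPM in macrophages and at 19.6 and 12.6 CPM in monocytes. Ccl3 and Ccl4, inflammatory chemokines, went the way of Cxcl10, with log2 ratios of 1.59 and 1.56 in macrophages and 1.2 and 1.60 in monocytes. Xcl1, a product of NK and CD8 T cells, had 6.49 and 21.5 CPM in macrophages and 30.4 and 19.6 CPM in monocytes. The monocyte ratio of Xcl1 changed sign with the other monocyte list. Of 7 such genes with enough UMIs in macrophages, 3 were higher and 1 lower. In monocytes 2 of 7 were higher and 2 lower, and in T cells 1 of 7 was higher and 5 lower. Over all genes 10.4% were called in macrophages, 6.75% in monocytes and 5.35% in T cells, in either direction.

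Within 1 library, cells with and without a ligand UMI at the thinned depth were also compared, and a gene counts here only if it was called in the same direction in both libraries. In monocytes with Cxcl10 (116 of 711 cells in Control and 394 of 1160 in IR), 6 of 11 interferon alpha/beta genes were higher than in monocytes without it, where 1.58% of 8761 genes were called in both libraries. Isg15 stood at 474 CPM with Cxcl10 and 149 CPM without it in Control, and at 1635 and 719 CPM in IR. The others were Ifit1, Ifit3, Irf7, Rsad2 and Usp18. Irf1 and Socs1 of the interferon-gamma list and Tnf of the NF-kB list were higher too. Cxcl9 was itself higher in these cells, at 1594 and 471 CPM in Control and at 317 and 172 CPM in IR.

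The same comparison by Cxcl9 gave fewer genes of these lists, but the numbers of calls do not compare the 2 ligands. In IR the cells with Cxcl9 held 582536 UMIs in macrophages and 1187748 in monocytes, against 3574375 in monocytes with Cxcl10. With fewer UMIs the intervals are wider and fewer genes can be called. In macrophages with Cxcl9 (498 of 1763 cells in Control and 52 of 374 in IR), 0 of 11 interferon alpha/beta genes were called in both libraries and 1 of 9 interferon-gamma genes was, namely Socs1, at 102 and 41.3 CPM in Control and 209 and 107 CPM in IR. Over all genes 1.02% of 8812 were called. Tlr4 was lower in macrophages with Cxcl9, at 22.8 and 35.5 CPM in Control and 20.6 and 45.5 CPM in IR. In monocytes with Cxcl9 (141 and 119 cells), 3 of 11 interferon alpha/beta genes were higher (Isg15, Ifit1 and Usp18) and Ifngr1 of the interferon-gamma list was lower, against 2.11% of 8761 genes. Cxcl16 was higher in monocytes with Cxcl9, at 680 and 213 CPM in Control and 522 and 310.3 CPM in IR. Median depth was similar in monocytes with and without Cxcl10 (5363 and 5695 UMIs in Control, 7808 and 7740.5 in IR) and higher in macrophages with Cxcl9 than without it (9656 and 7969 in Control).

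Receptor mRNA was found where it is known to act, in T cells and NK cells. Cxcr6 stood at 286 CPM in T cells of Control (806 UMIs) and 254 CPM in IR (668 UMIs), a log2 ratio of -0.17 (interval -0.32 to -0.02) that was not called. T cells held 87.1% of gated Cxcr6 UMIs in Control and 84.8% in IR, with CD8 T cells alone holding 49.9% and 55.1%. Macrophages and monocytes had 2.37 and 3.38 CPM and 4.56 and 5.28 CPM. No Cxcr6 UMI was found in mature DCs, cDC1, cDC2, pDCs, neutrophils, B cells or fibroblasts of either library.

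Among T cell subsets, Cxcr6 was steady in CD8 T cells, at 329 CPM in Control (462 UMIs, 199 cells) and 357 CPM in IR (434 UMIs, 130 cells), a log2 ratio of 0.12 (interval -0.07 to 0.31). In CD4 T cells without Foxp3 it was lower in IR, at 616 CPM (116 UMIs in 47 cells) and 266 CPM (73 UMIs in 35 cells), a log2 ratio of -1.21 (interval -1.66 to -0.78). This call rested on few cells, and the log2 ratio was -0.38 when mixed barcodes with T cell markers were counted in. In regulatory T cells (Foxp3) it stood at 117 and 108 CPM. T cells of no single subset had no Foxp3 UMI, and UMIs of neither or of both of Cd8 and Cd4. In these Cxcr6 stood at 214 and 150 CPM. In Control the CD4 interval (509 to 739 CPM) lay above that of CD8 T cells (300 to 360 CPM), while in IR CD8 T cells (324 to 393 CPM) and CD4 T cells (208 to 334 CPM) overlapped. Thinned to 1000 UMIs, 32.7% of CD8 T cells in Control and 32.3% in IR had a Cxcr6 UMI, against 44.7% and 28.6% of CD4 T cells, 9.09% and 4.76% of regulatory T cells, and 0.284% and 0.267% of macrophages.

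NK cells had little Cxcr6, and less of it in IR. The level was 26.6 CPM in Control (60 UMIs in 288 cells) and 13.4 CPM in IR (50 UMIs in 374 cells), a log2 ratio of -0.99 (interval -1.56 to -0.42), and it lay between -1.32 and -0.76 in all alternatives. The share of thinned NK cells with a Cxcr6 UMI was 2.08% and 0.535%, with exact intervals that overlapped (0.768 to 4.48% and 0.0648 to 1.92%), and 12.5% and 5.61% without thinning. In NK cells 5.11% of 9240 genes were called and 3 of the 5 axis genes were (Cxcl9, Cxcl10 and Cxcr6).

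Cxcr3 was a low count throughout and was not called in any gate. In T cells it had 37.7 CPM in Control (106 UMIs, interval 30.8 to 45.6) and 38.4 CPM in IR (101 UMIs, interval 31.3 to 46.7), a log2 ratio of 0.03 (interval -0.38 to 0.43), so a change of up to about the bounds of that interval in either direction was not detectable at this depth. Regulatory T cells had the highest level of the lymphocyte gates, 102 CPM (35 UMIs in 55 cells) and 86.3 CPM (20 UMIs in 21 cells). CD8 T cells had 23.5 CPM (33 UMIs) and 28.0 CPM (34 UMIs). CD4 T cells had 47.8 and 36.4 CPM, and T cells of no single subset 33.0 and 40.7 CPM. In Control the interval of regulatory T cells (71.2 to 142 CPM) overlapped that of CD4 T cells (21.8 to 90.7 CPM) and lay above that of CD8 T cells (16.2 to 33.0 CPM). NK cells had 20.0 CPM (45 UMIs) and 14.8 CPM (55 UMIs), a log2 ratio of -0.44 (interval -1.03 to 0.17).

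Some Cxcr3 was outside lymphocytes. The cDC1 gate had 14 UMIs in 28 cells in Control (44.5 CPM) and 2 UMIs in 8 cells in IR, and the pDC gate 3 UMIs in 8 cells and 7 UMIs in 9 cells. These counts are too few to compare the libraries. Mature DCs, cDC2, neutrophils, mast cells or basophils, B cells and fibroblasts had 0 UMIs in both libraries.

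**Figure D5:**
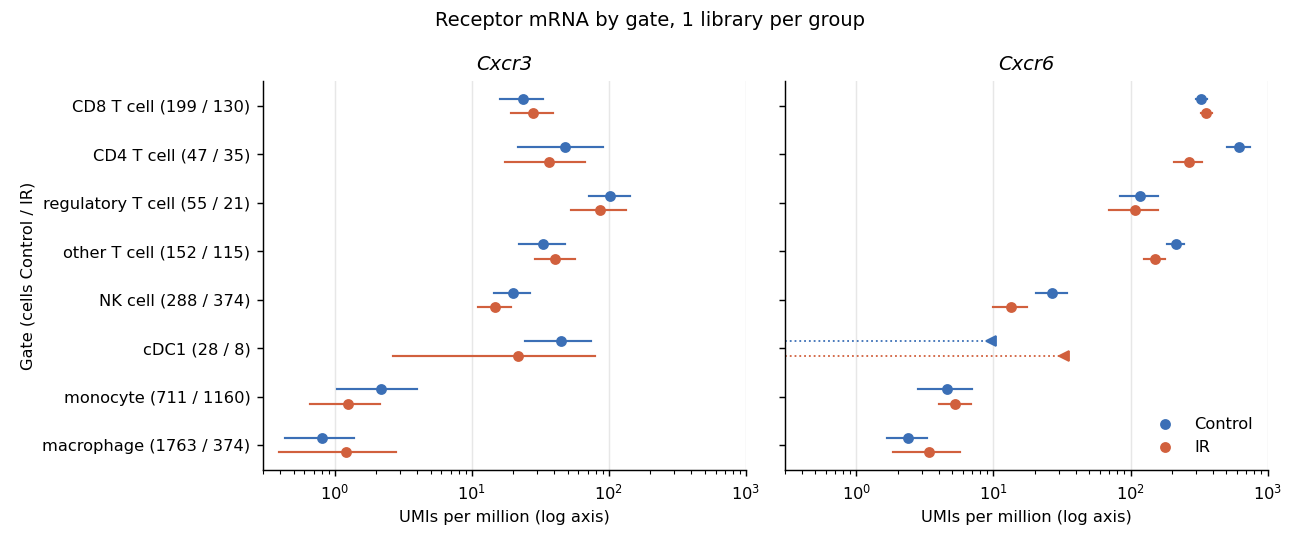
Cxcr3 and Cxcr6 mRNA in 8 gates as CPM on a log axis, Control in blue and IR in orange, with exact 95% Poisson intervals and arrows at the limit that a count of 0 allows (3 UMIs). Cxcr6 lies between 108 and 616 CPM in the T cell subsets, while Cxcr3 is highest in regulatory T cells, at 102 and 86.3 CPM. The 108 CPM belongs to IR regulatory T cells and is 43.9 CPM without their highest cell.

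Both receptors together were seen in few thinned T cells. In Control 2.87% had Cxcr3 alone, 1.32% had both and 26.7% had Cxcr6 alone, and in IR 4.98%, 1.66% and 21.6%. The product of the 2 shares was 1.18% in Control and 1.55% in IR. T cells with a Cxcr6 UMI (127 of 453 and 70 of 301) were also set against those without one, by the rule of calls in both libraries, where 1.32% of 7827 genes were called. Of 18 residency, effector and memory genes, 3 were higher in cells with Cxcr6. These were Il7r, the receptor of the survival cytokine interleukin-7 (Control 220 and 113 CPM, IR 261 and 152 CPM), and the inhibitory receptors Pdcd1 (211 and 132 CPM, 319 and 144 CPM) and Havcr2 (80.6 and 34.0 CPM, 106 and 57.7 CPM). None of 7 other homing receptors was called. Cxcr3 did not separate the 2 kinds of cell, at 42.8 and 36.3 CPM in Control and 42.7 and 37.5 CPM in IR.

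Between libraries, other homing receptors and effector genes of lymphocytes changed in both directions. In T cells 3 of 9 homing receptors with enough UMIs were higher and 1 was lower. The largest ratios were Cx3cr1 (-0.86, lower), Ccr4 (-0.83, not called), Ccr7 (0.78, higher) and Cxcr4 (0.78, higher). Of 18 residency, effector and memory genes 3 were higher and 1 lower in T cells, namely Gzmk (1.78), Gzmb (1.24, at 949 and 2248 CPM) and Prf1 (0.97), all cytotoxic effectors, and Tox (-0.89), a factor of exhausted T cells. In NK cells 0 of 7 homing receptors were higher and 1 was lower, Ccr2 (-0.60), while Cx3cr1 (0.37) and Ccr7 (0.27) were not called. Of 17 residency, effector and memory genes in NK cells 2 were higher and 4 lower, among them Gzmb (1.62, at 1326 and 4079 CPM), Pdcd1 (-1.61), Tox (-1.37) and Itga1 (-1.35). In T cells 5.35% of 9631 genes were called and in CD8 T cells 4.68% of 8047. In NK cells 5.11% of 9240 genes were called, 1.72% higher and 3.39% lower.

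Ligand UMIs were also counted in the lymphocyte gates, at lower levels than in the gates above. T cells had 81.7 and 21.3 CPM of Cxcl9 (log2 ratio -1.94) and 69.3 and 141 CPM of Cxcl10 (1.02), and 2 of the 5 axis genes were called there. CD8 T cells had 85.4 and 29.6 CPM of Cxcl9 and 18.5 and 133 CPM of Cxcl10, and 3 of 5 were called. Myeloid RNA was present in these gates, since Lyz2, a myeloid gene, stood at 734 and 743 CPM in T cells, and the summed C1q genes (3 of 3 present) at 133 and 66.9 CPM. The 6 monocyte markers summed to 1266 and 2097 CPM in T cells, and Ly6c2 alone stood at 652 and 1003 CPM. The source of this Ly6c2 was not tested, so the sum is not a measure of myeloid RNA alone. Of the 6 markers 2 were at 0 in each library, because lymphocytes with a Chil3 or Hp UMI were left out as mixed. The 5 neutrophil markers summed to 3.55 and 104 CPM, and the share of free RNA estimated from genes of other lineages was 3.23% and 6.54%. In CD8 T cells that share was 3.12% and 7.17%. Without lymphocytes that had at least 5 Lyz2 UMIs per 10000, T cells had 19.4 and 12 CPM of Cxcl9, 61.8 and 91.3 CPM of Cxcl10, and 17.1 and 30.9 CPM of Cxcl16. In the same reduced gate Cxcr6 stood at 317 and 289 CPM and Cxcr3 at 42.9 and 42.4 CPM. In T cells of no single subset Cxcl10 was lower in IR, at 121 and 68.3 CPM. It was called higher in CD8 T cells and in regulatory T cells (161 and 513 CPM). In the latter, 1 of 21 IR cells held 66 of the 119 UMIs, and the values without the highest cell of each library were 115 and 245 CPM. Their free RNA share was 4.16% and 22.3%, and their neutrophil markers summed to 5.84 and 492 CPM. The Cxcl10 ratio of T cells of no single subset changed sign when mixed barcodes were counted in (0.36). Their Cxcl9 ratio of -2.32 changed sign in 3 alternatives (0.0012 to 1.27). In NK cells Cxcl9 had 17 and 4 UMIs, and Cxcl10 had 65 and 252 UMIs, of which 118 in IR came from 1 cell. Without the highest cell of each library the Cxcl10 ratio of NK cells was 0.70 in place of 1.23, and it reached -0.05 with all gate thresholds doubled. The part of myeloid RNA in these ligand values was not tested.

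Across the 7 gates with at least 40 cells in both libraries (14 values of log2 CPM per gene with a pseudocount of 10), the genes most like each axis gene were found among 9715 genes by Pearson correlation, given as a description, since the 14 values come from 2 libraries. Cxcl9 was most like Fcgrt (0.95), followed by Pltp, Slc39a1, App and Dnajb14. Cxcl10 was most like Socs3 (0.96), followed by the interferon-inducible genes Irgm1 and Ifi211, then Tor3a and Ifi204. Cxcl16 was most like P2rx4 (0.98), then Plekho1, Ctsh, Ifi30 and Slc6a6. Cxcr3 was most like Trbc2 (0.99), then Cd247, Ikzf3, Icos and Pglyrp2, and Cxcr6 was most like Lat (0.99), then Cd3g, Trac, Camk4 and Cd3d. The likeness was 0.65 between Cxcl9 and Cxcl10, 0.72 between Cxcl9 and Cxcl16, and 0.92 between the 2 receptors.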

How the data were processed

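CD45+ cells of Control and IR MC38 tumors were profiled with the 10x Chromium 3' kit. The values the authors deposited are unnormalized UMI counts of every gene in every barcode, as 1 unfiltered matrix per library, aligned to mm10 with Cell Ranger 6.0.1 according to the submitters' processing notes, while the matrix headers name an older release. The matrices held 1067746 Control and 990007 IR barcodes (48593879 and 42406461 UMIs).

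Barcodes with at least 1000 UMIs, at least 200 genes and at most 25% mitochondrial UMIs were kept (4679 and 3410). Scrublet, run in scanpy 1.11.5, marked no doublet by its automatic threshold, so the top 6% by score (281 and 205) were taken out, which left 4398 and 3205 barcodes with a median of 7002 and 7864 UMIs. Each lineage needed a threshold of summed marker UMIs per 10000 and at least 2 markers detected (3 for neutrophils). Barcodes left out as mixed (370 and 249) were of 2 unlike lineages, or were lymphocytes with any Chil3 or Hp UMI. Lymphocytes with equal T and NK marker UMIs also counted as mixed. Barcodes of no lineage (496 and 299) were left out too. With mixed barcodes that had T cell markers counted in, the T cell gate held 789 and 498 cells in place of 453 and 301. The thresholds were set from marker distributions, without looking at the axis genes. Monocytes and macrophages were split by whether monocyte or C1q UMIs prevailed.

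UMIs were summed per gate and library. Intervals are exact (Poisson, conditional binomial or Clopper-Pearson, scipy 1.17.1, at 95%). Where UMI counts were large, the interval of the Cxcl10 to Cxcl9 difference used the log method. The ratio intervals and the calls were tested on simulated Poisson counts, the model that they assume. Such counts do not show how the intervals behave where UMIs are concentrated in few cells. Genes named besides the 5 were the axis partners, the 4 largest absolute ratios of each list in the gates shown, and the 5 most alike genes, and some genes that this rule names are not reported here. Genes and lists were chosen with earlier results of these data known. The comparisons of cells with and without an axis gene, and the alternatives without the highest cell and without Lyz2-bearing lymphocytes, were chosen after seeing the data. Alternatives used edgeR 4.0.16 for TMM, a median of ratios, and other filters, gates and thinning.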

Additional observations from a re-analysis of the deposited data

Results flagged for a closer look

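Because there was 1 library per group, none of the differences between gates below was tested. Cxcl9 went in opposite directions between gates. Its log2 ratio was -1.57 in macrophages, -1.52 in monocytes, -1.53 in CD8 T cells and -2.81 in NK cells, but 0.79 in mature DCs. In T cells of no single subset it was -2.32. The mature DC value ranged from 0.14 with gate thresholds halved to 1.28 with them doubled, in the same direction. The value of T cells of no single subset changed sign in 3 alternatives, to 1.27 from 2000 UMIs, 0.0012 without Scrublet and 0.44 without Lyz2-bearing cells.

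Cxcl10 was higher in IR in monocytes (1.45), mature DCs (2.83), the fibroblast gate (2.55), CD8 T cells (2.85) and NK cells (1.23). It was lower in T cells of no single subset (-0.82). The last of these values turned to 0.36 when mixed barcodes with T cell markers were counted in.

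Barcodes that entered no comparison also carried these genes. In empty droplets (low-ranked barcodes by UMIs) the Control and IR levels were 322 and 571 CPM for Cxcl10 and 35.9 and 62.5 CPM for Cxcr6. Barcodes left out as mixed had 172 and 503 CPM of Cxcl10, and those that entered no gate had 432 and 743 CPM.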

How the results depend on the processing

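Depth limits Cxcr3 most, with 106 and 101 UMIs in T cells, and gates under 40 cells rest on single cells. No paired analysis was possible because each group had only 1 library. Of 184 alternative values of the 12 leading ratios 155 stayed within their counting interval, 29 moved beyond it and no called ratio changed sign, and the cause of a move was not tested. Cxcl9 in macrophages was -1.66 without mitochondrial and ribosomal genes and -1.66 at up to 10% mitochondrial UMIs, -1.47 with gate thresholds halved, -1.45 with them doubled, -1.67 with the other monocyte genes and -1.43 as a mean over cells. Cxcl10 in macrophages was 0.11, 0.30 (doubled), 0.81 and 0.37 in the corresponding settings, 0.30 from 500 UMIs, 0.31 without Scrublet and 0.096 without the highest cell. Cxcl10 in monocytes was 1.52 with a median of ratios, 1.39 without mitochondrial and ribosomal genes, 1.25 doubled, 1.36 with the other genes, 1.35 as a mean over cells and 1.52 without the highest cell. Cxcl9 in monocytes was -2.05 with the other genes. Cxcl16 in macrophages was -0.11 and 0.13 (without mitochondrial and ribosomal genes, mean over cells), and in monocytes 0.24 (halved) and 0.016 (other genes). The Cxcl10 minus Cxcl9 difference was 1.90 (no Scrublet), 1.62 (halved) and 2.48 (other genes) in macrophages, and 2.75 (doubled) and 3.41 (other genes) in monocytes. With mixed T cell barcodes counted in, 874 genes were called in T cells and 748 in CD8 T cells. Of 188 alternative source shares 68 moved, and with the other genes the IR shares of Cxcl9 were 49.96% in macrophages and 18.6% in monocytes. At 2000 UMIs a cell (302 and 181 cells dropped), shares with Cxcl9 were 35.1% of macrophages and 25.6% of monocytes in Control and 19.2% and 14.5% in IR, with Cxcl10 15.7%, 20.7%, 21.8% and 40.1%, and with Cxcl16 57.6%, 32.8%, 57.5% and 37.0%. Cxcr6 was in 40.8% and 35.6% of T cells and 4.57% of Control NK cells, and Cxcr3 in 8.71% of Control T cells. Among called values, signs changed for Cxcl9 in T cells of no single subset (1.27 from 2000 UMIs, 0.0012 without Scrublet, 0.44 without Lyz2-bearing cells). They also changed for Cxcl10 in the same cells (0.36 with mixed barcodes) and in NK cells (-0.052 doubled), and for Xcl1 in monocytes (0.84 with the other genes). TMM moved the median of all genes by over 0.1 in 5 small gates that give no leading ratio (-0.48 in neutrophils).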

Other observations

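Free RNA and left-out barcodes gave the remaining values of the axis genes. In empty droplets the Control and IR levels were 553 and 212 CPM for Cxcl9 and 328 and 259 CPM for Cxcl16, so the 2 CXCR3 ligands differed between libraries in the same direction outside cells as in monocytes. Mixed barcodes had 434 and 149 CPM of Cxcl9, 324 and 291 CPM of Cxcl16, 14.7 and 15 CPM of Cxcr3 and 93 and 78.9 CPM of Cxcr6. Barcodes with no gate had 460 and 205 CPM of Cxcl9.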
